A study of Mus musculus with 4 samples.

Results

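The semaphorins, their plexin receptors, the Eph receptor tyrosine kinases and the ephrins that bind them were read across tumour epithelial cells that differed in a Sox2 reporter. Members were taken by gene symbol in the platform annotation: Sema followed by a digit, Plxn followed by a letter, and Epha, Ephb, Efna or Efnb followed by a digit. This gave 51 genes of the 18193 on the arrays: 20 semaphorins, 10 plexin entries, 9 EphA receptors, 4 EphB receptors, 5 ephrin-A genes and 3 ephrin-B genes. Of these, 50 code for protein; Plxna4os1 is a long non-coding RNA within the Plxna4 gene, caught by its symbol. Where a gene had several probe sets, the one with the highest 4-array mean stands for it.

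The arrays held RNA of Epcam+ cells sorted from malignant, chemically induced squamous cell carcinomas of mouse skin, after gating out CD45, CD31 and CD140a (markers of leukocytes, endothelium and mesenchyme). One group was Sox2-GFP+ (2 arrays, here positive replicates 1 and 2) and the other Sox2-GFP- (2 arrays, negative replicates 1 and 2), so cells of both groups came from reporter mice and the fluorescence of the reporter is what separates them. The series text names 2 tumours of 2 mice as the source. The sources used here give neither strain nor age nor carcinogen. With 4 arrays, every value below is limited in precision by their number.

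Semaphorins are secreted or membrane-bound ligands first known for steering growing axons. Most act through plexins, receptors whose cytoplasmic part inactivates small GTPases of the Ras and Rap type, and secreted semaphorins of class 3 usually need a neuropilin as co-receptor. Eph receptors and ephrins both sit on the cell surface, so that contact between neighbouring cells signals into both of them. The pair controls tissue boundaries, and in skin it takes part in keratinocyte growth and the positioning of cells in the hair follicle.

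Ephrin-B2 gave the widest separation of all members. Efnb2, a transmembrane ephrin and the main partner of the receptor EphB4, read log2 values of 7.94 and 8.44 in positive replicates 1 and 2 and of 10.00 and 10.59 in negative replicates 1 and 2. Both positive arrays thus lay at least 1.56 log2 units under both negative arrays. The log2 difference (positive minus negative throughout) was -2.10 ± 0.31 (SE, n = 2 per group), or 4.30 times lower in positive cells. It was the only member past the threshold once the replicate number entered the fit as a block (limma adjusted p = 0.0359). Without that block it did not pass (limma adjusted p = 0.180), and over its other settings the adjusted p ran from 0.019 to 0.317 without the block and from 3.6e-08 to 0.0749 with it. In bulk RNA, fewer cells that make a transcript and less of it per cell cannot be told apart, here or in any result that follows.

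All 4 probe sets of Efnb2 read lower in positive cells, with log2 differences from -2.55 to -1.60 and no overlap between the groups in any of them. Its relative Efnb1, the ephrin-B encoded on the X chromosome, lay the other way. Efnb1 read 9.39 and 9.39 in positive and 8.87 and 8.88 in negative arrays, a log2 difference of 0.51 ± 0.18 (SE, n = 2 per group, limma adjusted p = 0.307). Its 3 probe sets gave differences from 0.51 to 1.13, each with both positive arrays above both negative arrays. Efnb3, the remaining B-class ephrin, read 4.42 and 4.45 against 4.09 and 4.10, under the lower quartile of genes on every array (4.53 to 4.77), so its small difference of 0.34 is that of a dim probe set.

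Start regions are shown for members of both directions described here. They are the 3 lowest and 3 of the highest members by the gap between groups, picked after their values were seen. Each has 1 entry in the RefSeq promoter table (GRCm38.p6). Sema3f, Sema4c and Sema4d had wider gaps above (0.75, 0.62 and 0.56) than Efnb1 (0.51), but they do not have exactly 1 entry and are not shown. Each run is the 250 bases before the transcript start that the table uses, 5′ to 3′ on the strand of the gene. RefSeq's full extent of the gene begins further upstream in a pair of them, so that all 250 bases of the Sema4g run and 19 bases of the Epha4 run lie within the gene. Capitals mark the CCAAT box (CCAAT, or ATTGG on the other strand) and the Sox family motif, searched as ACAAAG and ACAATG on both strands; no marked motifs overlap in these windows.
The lower members are these.
Efnb2 (chr8:8661243-8661492, reverse strand): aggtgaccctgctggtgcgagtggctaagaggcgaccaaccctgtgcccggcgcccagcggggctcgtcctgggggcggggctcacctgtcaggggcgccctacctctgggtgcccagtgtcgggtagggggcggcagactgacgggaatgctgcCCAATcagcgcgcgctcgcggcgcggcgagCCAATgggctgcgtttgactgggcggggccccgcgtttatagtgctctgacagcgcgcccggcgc
Sema4g (chr19:44989094-44989343, forward strand): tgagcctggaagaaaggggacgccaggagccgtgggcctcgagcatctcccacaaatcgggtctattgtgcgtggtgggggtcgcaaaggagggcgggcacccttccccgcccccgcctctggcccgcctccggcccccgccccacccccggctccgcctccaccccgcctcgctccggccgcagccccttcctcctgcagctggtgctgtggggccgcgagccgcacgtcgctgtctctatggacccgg
Epha4 (chr1:77515089-77515338, reverse strand): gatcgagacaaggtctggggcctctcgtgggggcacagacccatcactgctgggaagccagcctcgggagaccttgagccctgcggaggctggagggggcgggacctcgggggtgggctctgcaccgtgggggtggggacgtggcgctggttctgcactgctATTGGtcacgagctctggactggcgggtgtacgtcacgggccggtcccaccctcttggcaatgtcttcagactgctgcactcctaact
The higher members are these.
Efna4 (chr3:89338029-89338278, reverse strand): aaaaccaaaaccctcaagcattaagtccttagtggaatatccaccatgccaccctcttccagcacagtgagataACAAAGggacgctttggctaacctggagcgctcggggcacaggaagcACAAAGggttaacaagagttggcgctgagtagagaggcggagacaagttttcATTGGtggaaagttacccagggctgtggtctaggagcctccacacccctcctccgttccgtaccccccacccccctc
Sema3c (chr5:17574566-17574815, forward strand): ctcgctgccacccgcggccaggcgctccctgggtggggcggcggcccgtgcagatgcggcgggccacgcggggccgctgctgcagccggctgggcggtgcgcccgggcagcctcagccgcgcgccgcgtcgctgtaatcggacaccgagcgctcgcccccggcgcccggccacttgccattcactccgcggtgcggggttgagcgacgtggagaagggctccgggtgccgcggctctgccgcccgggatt
Efnb1 (chrX:99135811-99136060, forward strand): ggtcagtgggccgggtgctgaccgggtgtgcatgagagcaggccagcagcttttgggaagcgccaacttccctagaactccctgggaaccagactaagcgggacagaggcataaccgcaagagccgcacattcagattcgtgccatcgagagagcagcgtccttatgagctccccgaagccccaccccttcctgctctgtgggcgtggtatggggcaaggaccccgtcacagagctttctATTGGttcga

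In these windows Efnb2 holds 2 CCAAT boxes, 95 and 65 bases before the start, and Epha4 and Efnb1 hold 1 each. Efna4 holds 1 CCAAT box and 2 copies of the Sox motif, 176 and 129 bases before the start, and is the only gene of the 6 with a Sox motif in this stretch. GC content ran from 54.4% in Efna4 to 78.4% in Sema3c. Over all 32851 windows of the table, 33.8% hold a CCAAT box and 25.2% a Sox motif; over the 58 windows of the 44 members with an entry, the shares are 31.0% and 19.0%. A match describes letters and not a bound site.

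**Figure D1:**
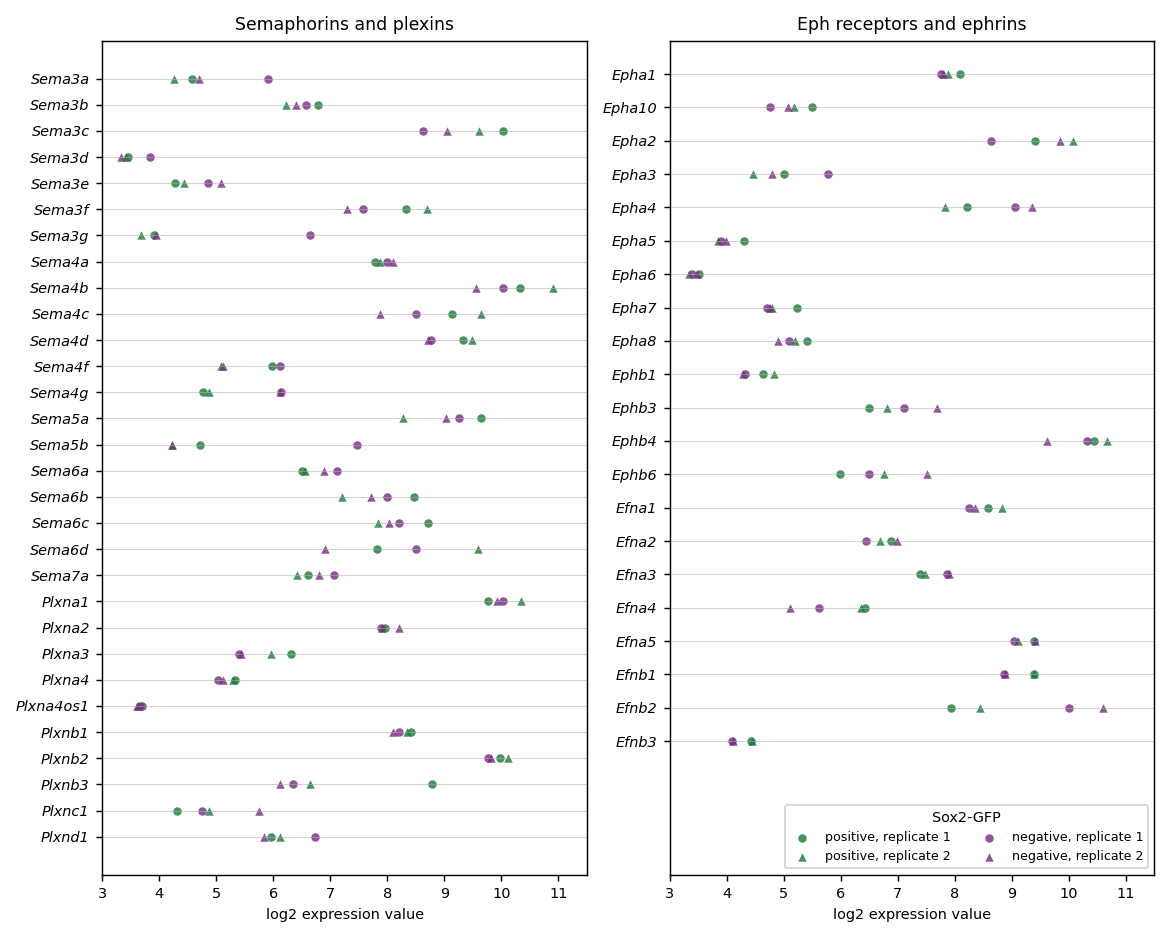
Log2 expression value (horizontal) of each of the 51 members on the 4 arrays; green is Sox2-GFP-positive, purple Sox2-GFP-negative, circles replicate 1 and triangles replicate 2. Efnb2 shows both green points (7.94 and 8.44) well to the left of both purple points (10.00 and 10.59).

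Across the whole group, members lay on both sides. Without the block, limma put no member under an adjusted p of 0.05, nor any other of the 18193 genes (0%); at an unadjusted p under 0.05 stood 8 members higher and 5 lower, against 9.75% and 5.22% of all genes in those directions. With the block 0 members were higher and 1 lower, beside 0.0715% and 0.868% of all genes. Counted without a test, 20 of the 51 (39.2%) lay above (both positive arrays over both negative arrays), close to the 35.5% of all genes, and 11 (21.6%) had both below, against 14.0% of all genes. Separated by at least 1 log2 unit were 0 above (0.665% of all genes) and 2 below, Efnb2 and Sema4g (1.36% of all genes). The median log2 difference of the members was 0.07, beside 0.14 over all genes. Without positive replicate 1 it was -0.09, beside 0.08 over all genes. It was 0.07 to 0.19 when any other array was left out, beside 0.13 to 0.17.

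Directions hold for the values as deposited. Setting the arrays level on their poly-A spike-in controls raised every difference by 0.79, put 36 members above and 3 below (84.8% and 1.94% of all genes), and turned the sign of 6 of the 11 members that lay below (Efna3, Ephb3, Sema3e, Sema4a, Sema6a and Sema7a); such a shift leaves differences relative to the median of all genes as they were, and after quantile normalization, which can change them, all 11 still lay below that median. Efnb2, Sema4g, Epha4, Sema3g and Sema3a had a negative difference as deposited, after quantile normalization, with equal medians and under spike-in scaling.

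**Figure D2:**
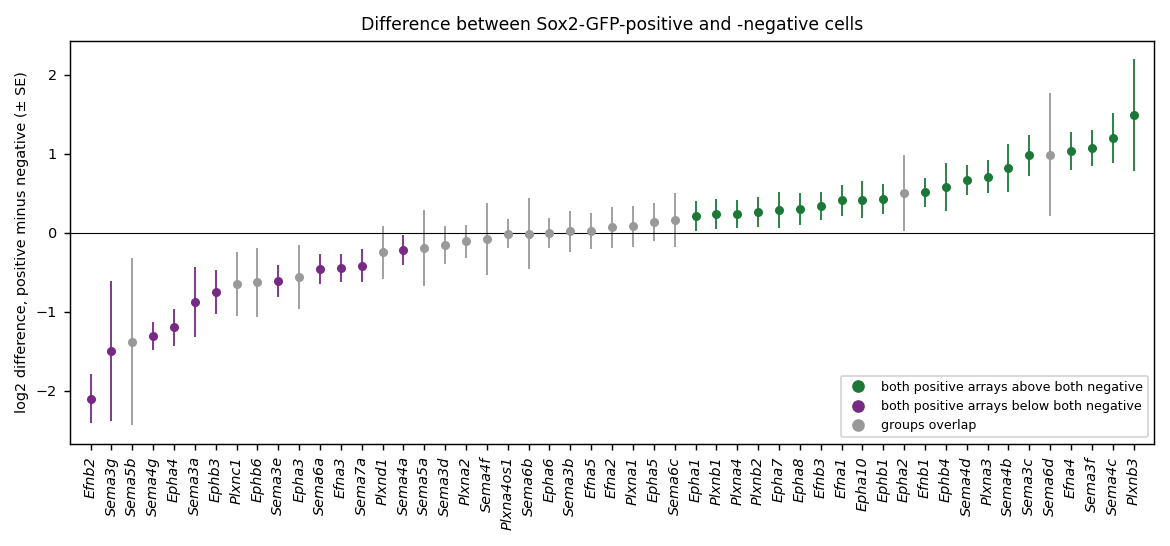
Log2 difference, Sox2-GFP-positive minus Sox2-GFP-negative (vertical, with SE from limma) for the 51 members in order, as deposited; green marks the 20 with both positive arrays above both negative arrays, purple the 11 with both below, grey the 20 whose groups overlap. The range runs from -2.10 for Efnb2 to 1.49 for Plxnb3, and spike-in scaling adds 0.79 to each, which turns the sign of 6 purple members.

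Among the receptors for ephrins, Epha4 lay furthest below the negative cells. EphA4 is unusual among EphA receptors in binding ephrin-B ligands as well as ephrin-A. It read 8.21 and 7.82 in positive and 9.06 and 9.36 in negative arrays, without overlap, for a log2 difference of -1.20 ± 0.24 (SE, n = 2 per group, limma adjusted p = 0.205). In all 5 of its probe sets the positive arrays lay under the negative ones, with differences from -1.37 to -0.81. Ephb3, an EphB receptor of epithelia, read 6.50 and 6.81 against 7.11 and 7.69, a difference of -0.75 on 1 probe set (limma adjusted p = 0.320). Ephb6, which lacks kinase activity, had overlapping groups (5.99 and 6.75 against 6.50 and 7.51).

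The EphB receptor with the highest readings was Ephb4, the receptor of Efnb2. It read 10.44 and 10.66 in positive and 10.32 and 9.62 in negative arrays. The groups are apart by 0.12 log2 units, and the difference of 0.58 came mostly from negative replicate 2 (limma adjusted p = 0.433). Epha2, an EphA receptor widely made by epithelia and carcinomas, read 9.41 and 10.08 against 8.64 and 9.85, with overlapping groups and replicate 2 above replicate 1 in both. Epha1, Epha7, Epha8 and Epha10 had small positive differences of 0.21 to 0.42, and Ephb1 read 4.63 and 4.83 against 4.32 and 4.29, under the lower quartile of genes on 3 of the 4 arrays. Epha3 read 5.01 and 4.46 against 5.78 and 4.80, highest in negative replicate 1. Epha5 and Epha6 lay under the lower quartile of genes on every array, so these arrays give no more than a bound for them.

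The A-class ephrins, which are tethered by a lipid anchor, were split. Efna4 was highest above, at 6.43 and 6.36 in positive and 5.62 and 5.11 in negative arrays (log2 difference 1.03 ± 0.24 SE, n = 2 per group, limma adjusted p = 0.218). The groups are 0.75 log2 units apart, but the gene has 1 probe set. Efna1, the usual ligand of EphA2, read 8.58 and 8.83 against 8.24 and 8.35, and both of its probe sets lay above (0.41 and 0.49). Efna3 ran the other way on its brighter probe set, at 7.39 and 7.47 against 7.86 and 7.89, but its dimmer probe set lay above (0.31), so no direction is given for it. Efna5 (9.38 and 9.11 against 9.04 and 9.41) and Efna2 (6.88 and 6.69 against 6.45 and 6.99) overlapped between groups.

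**Figure D3:**
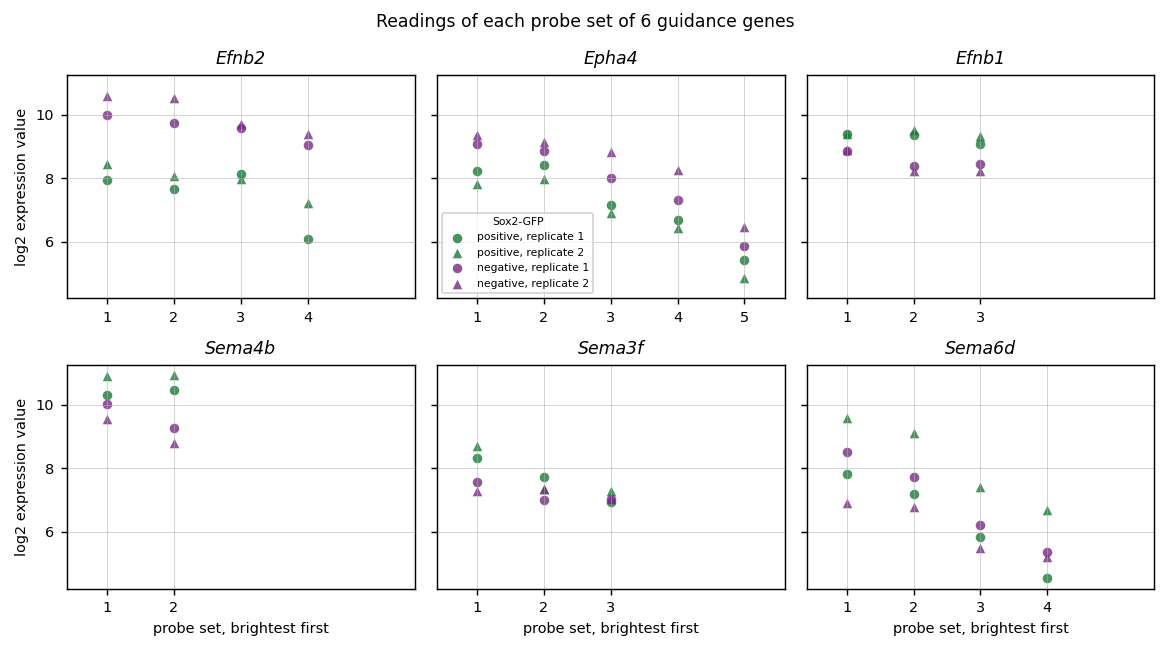
Log2 expression value (vertical) of each probe set of 6 members, brightest probe set first; colours are the groups and shapes the replicates. Positive points lie under negative points in all 4 probe sets of Efnb2 and all 5 of Epha4 and over them in all 3 of Efnb1, while in Sema6d positive replicate 2 is highest in each of the 4.

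Semaphorins had members far out in both directions: 5 of the 20 lay above and 7 below (35.5% and 14.0% of all genes), with a median log2 difference of -0.12. In class 4, whose members span the membrane, 3 lay above. Sema4c, a ligand of plexin-B2, read 9.13 and 9.65 in positive and 8.51 and 7.87 in negative arrays, a log2 difference of 1.20 ± 0.32 (SE, n = 2 per group, limma adjusted p = 0.241). Sema4d, the ligand of plexin-B1, read 9.32 and 9.49 against 8.76 and 8.72 (0.67 ± 0.19, limma adjusted p = 0.249). All 3 of its probe sets lay above, the dimmest by only 0.11. Sema4b read 10.32 and 10.90 against 10.02 and 9.55, and its second probe set gave a larger log2 difference than the first (1.68 against 0.82).

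Class 4 also held the member with the tightest separation below. Sema4g read 4.76 and 4.87 in positive and 6.13 and 6.12 in negative arrays, so that the groups are 1.26 log2 units apart while replicates of a group differ by 0.11 at most. This is a log2 difference of -1.31 ± 0.18 (SE, n = 2 per group), or 2.48 times lower in positive cells. It did not pass with the block (limma adjusted p = 0.0857) or without it (0.180). Sema4a, which also acts in the immune system, read 7.78 and 7.87 against 7.99 and 8.10, but its other probe set lay slightly above (0.10).

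The secreted class 3 semaphorins parted as well. Sema3f, which signals through neuropilin-2, read 8.32 and 8.70 in positive and 7.57 and 7.30 in negative arrays (log2 difference 1.07 ± 0.23 SE, n = 2 per group, limma adjusted p = 0.210). Its other probe sets gave 0.36 and 0.08, and in the dimmest the groups overlap. Sema3c, a class 3 ligand found in several carcinomas, read 10.03 and 9.61 against 8.63 and 9.05 (0.98 ± 0.26, limma adjusted p = 0.242), with both probe sets above. Sema3e, the ligand that binds plexin-D1 directly, read 4.28 and 4.44 against 4.85 and 5.09, under the lower quartile of genes on 2 arrays. All 4 of its probe sets had negative differences. The neuropilins themselves showed no separation: Nrp1 read 6.63 and 6.15 against 7.47 and 6.12, and Nrp2 7.68 and 7.87 against 7.82 and 7.29.

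Of the membrane semaphorins outside class 4, Sema7a (6.60 and 6.41 against 7.06 and 6.80) and Sema6a (6.51 and 6.56 against 7.11 and 6.89) lay below by -0.42 and -0.46, as deposited. Sema7a, which carries a lipid anchor, has plexin-C1 as its receptor, and Plxnc1 had overlapping groups (4.31 and 4.87 against 4.75 and 5.74), with 5 of its 6 probe sets negative. Sema6d, a ligand of plexin-A1, differed most between the replicates. It read 7.81 and 9.59 in positive and 8.50 and 6.91 in negative arrays, so positive minus negative came to -0.69 in replicate 1 but 2.68 in replicate 2. That pattern, singled out after the values were seen, appeared in all 4 of its probe sets. Several other semaphorins had overlapping groups: Sema5a read 9.64 and 8.27 against 9.26 and 9.03, Sema6b 8.46 and 7.21 against 7.99 and 7.71, Sema6c 8.71 and 7.83 against 8.20 and 8.02, and Sema4f 5.98 and 5.08 against 6.11 and 5.11. In Sema5a, Sema6b and Sema6c the highest reading was that of positive replicate 1 and the lowest that of positive replicate 2. On these probe sets the genes varied more within the positive group than between the groups. All 4 probe sets of Sema5a had negative differences (-0.67 to -0.19), and in 2 of them the positive arrays lay below.

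Among plexins, 5 of 10 entries lay above and 0 below (35.5% and 14.0% of all genes). Plxnb3, a receptor for Sema5a, read 8.78 and 6.65 in positive and 6.34 and 6.11 in negative arrays. Positive replicate 1 stands 2.13 log2 units over the next array, so the difference of 1.49 ± 0.71 (SE, n = 2 per group, limma adjusted p = 0.403) rests mainly on it. The other, dimmer probe set of Plxnb3 also lay above (0.29). Plxna3, a co-receptor partner of neuropilins, read 6.31 and 5.95 against 5.40 and 5.44 (0.71 ± 0.21, limma adjusted p = 0.261). On its other probe set the groups overlapped (0.24). Plxnb1 and Plxnb2, the receptors of Sema4d and Sema4c, had differences of 0.24 and 0.26, with an SE of 0.19 each. Plxna1 (9.77 and 10.35 against 10.02 and 9.93) had the highest mean reading of the plexins and overlapping groups, while its other probe set lay above (0.59). Plxna2 (7.96 and 7.90 against 7.88 and 8.21) and Plxnd1 (5.95 and 6.12 against 6.73 and 5.84) overlapped too, the latter with its highest reading in negative replicate 1. Plxna4 (5.32 and 5.30 against 5.02 and 5.11) lay above by 0.24, but on its other probe set the groups overlapped (-0.05).

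The within-replicate differences show how even each gap was. For Efnb2 they were -2.06 and -2.15, for Sema4g -1.37 and -1.26, and for Efnb1 0.51 and 0.51, so replicates 1 and 2 gave nearly the same size. For Epha4 (-0.85 and -1.55), Sema4c (0.62 and 1.79) and Sema4b (0.29 and 1.34) the second was larger, and for Sema3c (1.41 and 0.56) the first. Over the members, 21 were higher in both replicate comparisons, 15 lower in both and 15 opposite (41.2%, 29.4% and 29.4%). Among all genes the shares were 42.8%, 20.4% and 36.8%.

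**Figure D4:**
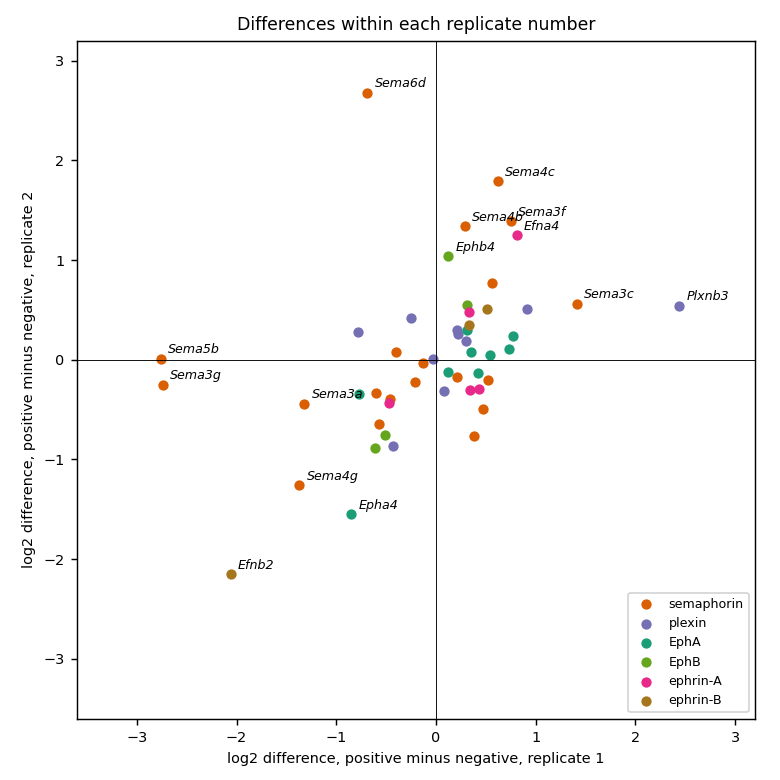
Log2 difference, positive minus negative, between the replicate 1 arrays (horizontal) and the replicate 2 arrays (vertical) for the 51 members, coloured by subfamily; members with a difference of at least 1 log2 unit in either are named. Efnb2 lies near the diagonal (-2.06 and -2.15), Sema3g and Sema5b differ most in replicate 1 (-2.74 and -2.76), and Sema6d has opposite signs.

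Markers of other cell types moved with part of these results. Krt5 read 13.24 to 13.32 on all arrays, and Epcam, for which the cells were sorted, 10.75 to 11.80. The fibroblast marker Col1a1 was also bright, at 12.57 and 9.60 in positive and 13.68 and 12.76 in negative replicates 1 and 2. The mean level of 15 fibroblast markers, each gene taken as its distance from its own 4-array mean, stood at -0.17 and -2.25 in positive and 1.94 and 0.49 in negative arrays, and 14 of the 15 lay below in positive cells. For 14 endothelial markers the levels were -0.12 and -0.84 against 1.20 and -0.24 (0 above and 3 below). For 13 leukocyte markers they were -0.07 and -0.70 against 1.04 and -0.27 (1 above and 3 below). Over all genes, 35.5% lay above and 14.0% below. Pecam1, which encodes CD31, was highest in negative replicate 1 (8.44, against 5.57 to 6.41), as was Pdgfra, which encodes CD140a (7.83, against 4.85 to 5.96). Ptprc, which encodes CD45, was not: it read 4.98 and 4.34 in positive and 4.97 and 4.18 in negative arrays. Of 11 Schwann cell and melanocyte markers 2 lay above and 5 below, with levels of -0.14 and -0.41 against 0.47 and 0.09, and of 12 epithelial markers 1 lay above and 3 below. The log2 scale of these files has no zero, so no marker can be listed as absent.

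A few semaphorins stood out in that same array. Sema3g, known from endothelium, read 6.65 in negative replicate 1 and 3.68 to 3.94 elsewhere. Sema5b read 7.47 there and 4.22 to 4.71 elsewhere, and Sema3a, the prototype axon repellent, 5.90 against 4.25 to 4.69. Between the replicate 2 arrays the log2 difference was -0.25 for Sema3g, 0.01 for Sema5b and -0.44 for Sema3a. Efnb2, which fibroblasts and arterial endothelium also make, was highest in negative replicate 2 (10.59), and without negative replicate 1 its difference was -2.40. Within replicates 1 and 2 the mean of the fibroblast list differed by -2.11 and -2.74, beside -2.06 and -2.15 for Efnb2. The part of these markers in the differences of Efnb2, Sema3g, Sema5b and Sema3a was not tested.

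**Figure D5:**
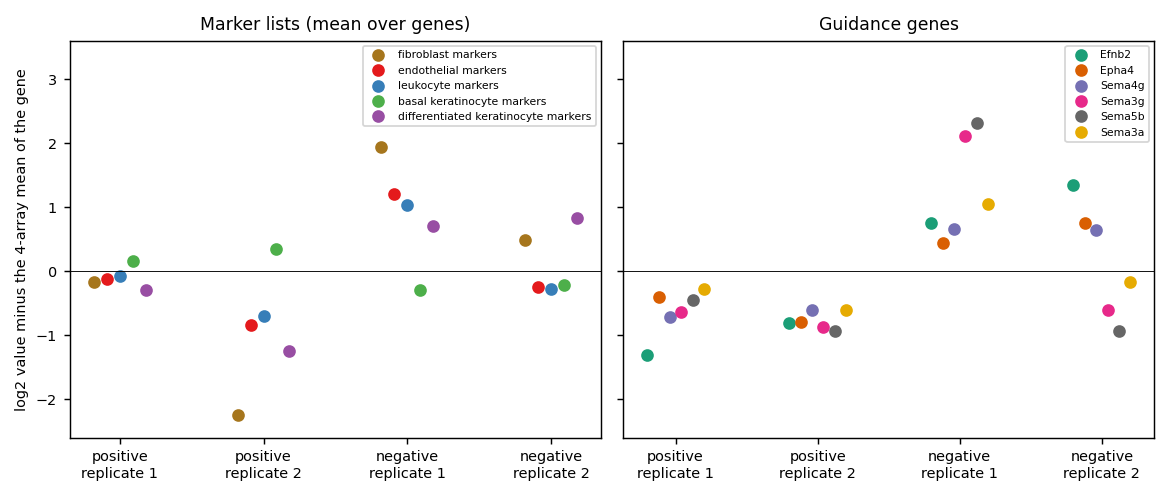
Log2 value minus the 4-array mean of the gene (vertical) on each array, as the mean over marker lists (left) and for 6 guidance genes (right). Fibroblast, endothelial and leukocyte lists peak in negative replicate 1 (1.94, 1.20 and 1.04), as do Sema3g, Sema5b and Sema3a, while Efnb2 and Epha4 are highest in negative replicate 2.

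Keratinocyte markers were read by layer. Of 14 markers of differentiated keratinocytes 2 lay above and 9 below (35.5% and 14.0% of all genes), with mean levels of -0.29 and -1.24 against 0.70 and 0.83. Ivl was 1 of those above, at a log2 difference of 0.41. Of 11 markers of basal keratinocytes 9 lay above and 2 below, with mean levels of 0.16 and 0.35 against -0.29 and -0.22. The largest differences above were those of Lamb3 (1.54), Itga3 (1.41) and Itgb4 (1.22). The basal keratin genes did not share them: Krt5 differed by -0.04, Krt14 by 0.04 and Krt15 by -0.85. The part of the differentiation state in the guidance gene values was not tested.

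Genes downstream of the receptors were read from lists. Of 29 measured co-receptors and plexin effectors, 0 passed in limma with or without the block. Among them 9 lay above and 10 below (35.5% and 14.0% of all genes), and the median difference was -0.06. Arhgap35 read 9.45 and 9.69 against 8.32 and 8.48, with the widest gap above, followed by the kinase gene Cdk5 (8.33 and 8.46 against 7.90 and 7.90). Below lay the kinase gene Fyn (5.07 and 5.21 against 7.17 and 5.81), highest in negative replicate 1.

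Of 27 measured Eph and ephrin effectors, 9 lay above and 6 below (35.5% and 14.0% of all genes), with a median of 0.05. With the block 1 passed, higher in positive cells (0.0715% of all genes). This was Grip1, a PDZ scaffold that binds the tail of ephrin-B proteins. It read 8.39 and 8.96 in positive and 6.55 and 6.56 in negative arrays (log2 difference 2.12 ± 0.26 SE, n = 2 per group, limma adjusted p = 0.042 with the block and 0.169 without). Arhgef15 read 6.04 and 6.0 against 5.24 and 5.01. Below lay the phosphatase gene Ptprj (7.16 and 6.76 against 7.93 and 8.15) and the adaptor gene Grb10 (5.12 and 5.05 against 7.88 and 5.72), the latter again highest in negative replicate 1.

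In the other guidance systems, netrins, Slits and repulsive guidance molecules with their receptors, 26 genes were measured. Of these, 7 lay above and 5 below (35.5% and 14.0% of all genes), with a median of 0.10. With the block 2 were lower (0.868% of all genes). Srgap1, a GTPase-activating protein that binds the Slit receptor Robo1, read 4.44 and 4.30 in positive and 7.03 and 7.23 in negative arrays (log2 difference -2.76 ± 0.20 SE, n = 2 per group, limma adjusted p = 0.0273 with the block and 0.157 without). Slit3, a secreted ligand of Robo receptors that fibroblasts also make, read 6.57 and 5.44 against 8.78 and 7.71 (limma adjusted p = 0.0321 with the block and 0.218 without). Its order across arrays, with negative replicate 1 highest and positive replicate 2 lowest, is that of the fibroblast list, whose part in the difference was not tested. The calls of Grip1 and Slit3, like that of Efnb2, were lost with the block when dimmer genes were left out. Srgap1 was itself among the dimmer genes and was not tested there. With the block and quantile normalization over 1 probe set a gene, the calls of Grip1, Srgap1, Slit3 and Efnb2 were all lost. In each of these fits 0 genes of the array passed. Above lay Slit1 (7.27 and 7.33 against 6.76 and 6.40) and the netrin receptor gene Unc5a (5.95 and 7.77 against 5.75 and 5.59).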

How the data were processed

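Total RNA of 4 sorted samples was hybridised to whole-genome mouse Affymetrix arrays. The authors deposited 1 table of log2 values for 45101 probe sets; the log2 scale was read from the values (2.73 to 14.36), and R 2.14.0 is named in the submitters' processing notes. How background, normalization and probe set summary were handled is not given in the sources used here. Array medians were 5.49 to 5.61.

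Groups and replicate numbers came from sample titles. The 64 control probe sets were left out, and the 34945 probe sets with 1 symbol gave 18193 genes. All 51 members matched the RefSeq table by gene number. The test was limma 3.58.1 in R 4.3.3 (lmFit, eBayes, group as the only term, 2 residual degrees of freedom and a prior of 2.92), Benjamini-Hochberg adjusted over all genes, threshold 0.05. On simulated data the size and sign of its differences were checked, without the block fit. "Above" and "below" mean that both positive arrays lie on one side of both negative arrays. The series text has both cell kinds come from 2 tumours of 2 mice, so equal numbers were read as 1 tumour, which no label states; over genes the replicate differences of the groups correlated with r = 0.16, and the block fit leaves 1 residual degree of freedom.

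Named members are any that passed with or without the block, up to 12 each way by the gap between groups, and the member with the highest mean in each of 6 subfamilies, 27 in all; each pathway list gave the 2 widest gaps each way, of which 1 gene is not reported here. Members and lists were chosen with earlier results of these data known.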

Additional observations from a re-analysis of the deposited data

How the results depend on the processing

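With the replicate block, 13 genes were higher and 158 lower over the array, and 1 member, Efnb2, was lower. That member count was also 1 with the block and quantile normalization of all probe sets, 2 with the block at an adjusted p under 0.1 (125 higher and 344 lower of all genes) and 2 with the block and probe sets averaged per gene (89 and 278). It was 0 with the block without the dimmer genes, and 0 with the block and quantile normalization over 1 probe set a gene; neither fit called any gene. The block with a trended prior gave 5 higher and 4 lower members, beside 654 and 782 of the 18193 genes. All combinations with the block were added after seeing the data. A trended prior without the block called 1 gene higher and 18 lower, none of them a member. Spike-in scaling called 12559 genes higher and 158 lower, among members 30 higher and 1 lower, separated 36 members above and 3 below, and gave a member median of 0.86. Without the dimmer genes, which leaves 30 members, 12 lay above and 7 below. The shares of the 9097 genes kept there are not given, so these 2 counts cannot be judged against a background. With a margin of 1 log2 unit, 0 lay above and 2 below. Leaving out each array in turn gave 23 to 26 members above and 14 to 19 members below. The member median ran from -0.09 to 0.19, beside 0.08 to 0.17 over all genes. In these fits 3 arrays separate more readily than 4, and the lone array of a group is assumed to vary like the other group. The shares of all genes above and below are not given for them, so the member counts have no background.

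Some named members changed sign with the setting. Under spike-in scaling Efna3 read 0.35, Ephb3 0.04, Sema3e 0.18, Sema4a 0.57, Sema6a 0.33 and Sema7a 0.37. As deposited these differences ran from -0.75 (Ephb3) to -0.22 (Sema4a). Efna5 was -0.06 after quantile normalization (also with the block), -0.02 with equal medians and -0.03 with averaged probe sets (also with the block), and -0.16 to 0.21 as arrays were left out. Plxna1 was -0.01 after quantile normalization (also with the block) and -0.21 to 0.38 as arrays were left out, and Epha2 -0.10 to 1.11. No other named member changed sign under any setting run. Intensity near the floor limits named members under the lower quartile of genes on some arrays: Efnb3 on 4, Ephb1 and Sema3g on 3, Sema3a and Sema3e on 2 and Sema4g on 1.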

Other observations

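Several members are neighbours in the RefSeq gene table. Efna1, Efna3 and Efna4 follow each other with 0 protein-coding genes between them, and their log2 differences were 0.41, -0.45 (0.31 on the other probe set of Efna3) and 1.03. Sema3d and Sema3a are also direct neighbours, with Sema3e 3 protein-coding genes further on, and their differences were -0.16, -0.88 and -0.61. Sema3d lay under the lower quartile of genes on 4 arrays, and Sema3a and Sema3e on 2 each. Sema3b and Sema3f lie 3 protein-coding genes apart, with 0.02 and 1.07, and the other probe sets of Sema3b gave -0.27 and -0.51. The non-coding Plxna4os1 (3.61 to 3.69) lay under the lower quartile of genes on every array. Of the 34 members with several probe sets, 24 had differences of 1 sign in all of them and 10 did not.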
